A study of Mus musculus with 55 samples.

Results

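A set of 10 genes of the microtubule motors, out of 55487 genes counted, was followed across the dorsal hippocampus of 55 mice. They encode kinesin-1 heavy chains (Kif5a, Kif5b and Kif5c), kinesin-1 light chains (Klc1 and Klc2), the kinesin-3 motors Kif1a and Kif1b, the kinesin-2 motor Kif3a, and the heavy chain (Dync1h1) and an intermediate chain (Dync1i1) of cytoplasmic dynein. The genes were chosen by their symbol, and the set was put together because Kif5a was high in Cnih3 KO mice in diestrus. Kif5a in KO diestrus mice, and every comparison of KO diestrus with another group, are therefore given as a description without a test, while the other 9 genes were tested between younger and older KO diestrus mice. All 10 passed the filter on low counts, which left 16168 genes for testing.

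Kinesins walk mostly toward the plus ends of microtubules and carry vesicles, mitochondria and proteins from the neuronal cell body into axons and dendrites, while dynein walks toward the minus ends and brings cargo back. A kinesin-1 motor joins heavy chains, which hold the motor domain, to light chains, which hold cargo, and dynein needs the dynactin complex for long runs. In hippocampal neurons these motors supply synapses, which lie far from the site of most protein synthesis.

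The samples were dorsal hippocampi of WT mice and of homozygous Cnih3 KO mice on a C57BL/6J background, with 1 library per mouse. The KO line derives from Cnih3 tm1a(KOMP)Wtsi and lacks one exon of Cnih3, a gene for an AMPA receptor trafficking protein, in the whole animal. There were 5 WT and 7 KO males, 7 WT and 6 KO females in estrus, 5 and 4 in proestrus, 4 and 5 in metestrus, and 6 of each genotype in diestrus. The mice were 10.86 to 23.71 weeks old, the females were staged by vaginal cytology, and 17 of the 55 were under 14 weeks old. Age was not balanced: 3 of 6 WT diestrus and 4 of 6 KO diestrus mice were under 14 weeks, whereas none of the 7 WT estrus mice and none of the 7 KO males were. All KO mice were listed with matings of Cnih3 mutants (Cnih3 parents), as were 4 of the 6 WT diestrus mice and 1 of the 7 WT estrus mice, while the other WT mice of these groups had B6 parents. Library totals were 25881295 to 63547098 counted reads. Cnih3 itself had a median of 39.5 CPM (counts scaled to library size) over 27 WT mice and 31.0 CPM over 28 KO mice, and the ranges overlapped. Gene counts do not isolate the missing exon, so these levels do not check the deletion.

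The 10 genes lie on 9 mouse chromosomes in the GRCm38 assembly. Kif5a spans chr10:127225696-127263348 on the minus strand, Kif3a chr11:53567379-53601967 on the plus strand and Dync1i1 chr6:5725639-6028039 on the plus strand. Klc1 spans chr12:111758849-111807844 on the plus strand and Klc2 chr19:5107746-5118560 on the minus strand. The members are long genes: 8 of the 10 had more exon sequence than the median tested gene (4.03 kb), from 3.57 kb in Dync1i1 to 17.6 kb in Kif1b. The library kit does not mark strand. Reads of Klc1 and its antisense neighbour Xrcc3, and of Dync1i1 and 1700019G24Rik, cannot be told apart where they overlap, and Kif5b, Klc2 and Dync1h1 also overlap antisense genes.

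Promoter sequences from RefSeq (GRCm38.p6, 300 bases around the start) were at hand for 7 of the 10 members. Those of Kif3a and Dync1i1, which were higher together with Kif5a in younger WT diestrus mice, and of Klc1, which was lower there, are shown because they differ in composition. Capitals mark the GC box GGGCGG, or CCGCCC where it lies on the other strand.
Kif3a, chr11:53567119-53567418, plus strand: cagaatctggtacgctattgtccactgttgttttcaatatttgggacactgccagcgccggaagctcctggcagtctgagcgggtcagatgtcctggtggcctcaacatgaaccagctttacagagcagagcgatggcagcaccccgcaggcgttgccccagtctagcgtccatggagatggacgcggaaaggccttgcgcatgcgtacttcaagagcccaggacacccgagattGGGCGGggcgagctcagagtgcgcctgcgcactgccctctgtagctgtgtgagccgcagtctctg
Dync1i1, chr6:5725389-5725688, plus strand: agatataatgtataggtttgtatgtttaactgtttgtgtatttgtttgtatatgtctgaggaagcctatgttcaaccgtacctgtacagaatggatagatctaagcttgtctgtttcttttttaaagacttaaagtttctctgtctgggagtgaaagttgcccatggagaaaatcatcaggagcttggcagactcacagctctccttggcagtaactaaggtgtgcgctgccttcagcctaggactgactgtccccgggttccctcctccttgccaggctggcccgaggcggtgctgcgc
Klc1, chr12:111758618-111758917, plus strand: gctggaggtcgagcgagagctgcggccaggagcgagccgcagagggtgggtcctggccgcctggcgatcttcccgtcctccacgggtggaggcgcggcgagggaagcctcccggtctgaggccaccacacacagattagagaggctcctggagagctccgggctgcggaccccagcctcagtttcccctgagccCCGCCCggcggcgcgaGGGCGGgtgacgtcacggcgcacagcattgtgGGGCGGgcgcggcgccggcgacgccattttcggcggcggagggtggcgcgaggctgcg
GC made up 59.7% of the Kif3a window, 46.7% of that of Dync1i1 and 73.7% of that of Klc1, against a median of 52.7% over 32851 promoters. The GC box occurred 1 time in Kif3a, 3 times in Klc1 and 0 times in Dync1i1, and 35.7% of all promoters held it on either strand. The estrogen response half-site GGTCA, searched on both strands, was found 1 time in Kif3a and in neither of the other two, and 40.5% of all promoters held it. None of the 3 windows held the full palindromic estrogen response element, which 0.07% of all promoters held. The full cAMP response element TGACGTCA occurred 1 time in Klc1 and in 1.79% of all promoters. Members not called between younger and older WT diestrus mice were also scanned. The GC box occurred 3 times in Dync1h1, 4 times in each Kif1b window, 1 time in Kif5c and 0 times in Kif1a. The full cAMP response element occurred 1 time in Kif5c and in no other of them. The estrogen response half-site occurred 3 times in the Kif1a window at chr1:93082431-93082730 and 0 times in the other Kif1a window. It occurred 2 times in each Kif1b window, 1 time in Kif5c and 0 times in Dync1h1. These matches are letters in a window and not measured binding.

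Per length, the motors differed widely in level. The mean over 55 mice was highest for Kif3a, at 76.5 CPM per kb of exon, followed by Klc1 at 73.8, Dync1i1 at 66.2 and Kif5a at 62.6 CPM per kb. Kif1a stood at 44.4, Kif5c at 41.3, Kif5b at 33.2, Klc2 at 23.9 and Kif1b at 18.4 CPM per kb. Dync1h1, the dynein motor subunit, was lowest at 8.6 CPM per kb. The ranges over mice overlapped between neighbours in this order except between Kif1b (11.9 to 26.2) and Dync1h1 (5.7 to 10.9 CPM per kb), and Kif5a had the widest, from 36.7 to 119.1 CPM per kb. Exon length here joins all annotated transcripts and understates the level of genes whose long forms are little used. Kif1b and Dync1h1, the lowest per kb, had the most exon sequence (17.61 and 15.66 kb). The highest, Kif3a, Klc1 and Dync1i1, had the least (3.59, 4.07 and 3.57 kb). The part of length in this order was not tested.

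Kif5a, the neuronal kinesin-1 heavy chain that carries neurofilaments and other axonal cargo, was highest in diestrus mice. Its level in KO diestrus was 9.24 ± 0.49 log2 CPM (SD, n = 6), followed by WT diestrus at 9.09 ± 0.31 (n = 6). The means of the other groups lay between 8.37 ± 0.15 in KO proestrus (n = 4) and 8.74 ± 0.17 in WT metestrus (n = 4), and neighbours in the order of these 8 groups differed by less than their SDs. In both diestrus groups the mice divided by age. The 4 KO diestrus mice under 14 weeks had 9.70, 9.43, 9.48 and 9.57 log2 CPM, and the 2 older ones 8.49 and 8.77. In WT diestrus the 3 younger mice had 9.33, 9.53 and 9.10 and the 3 older ones 8.95, 8.98 and 8.64. Younger and older mice did not overlap in either genotype.

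**Figure D1:**
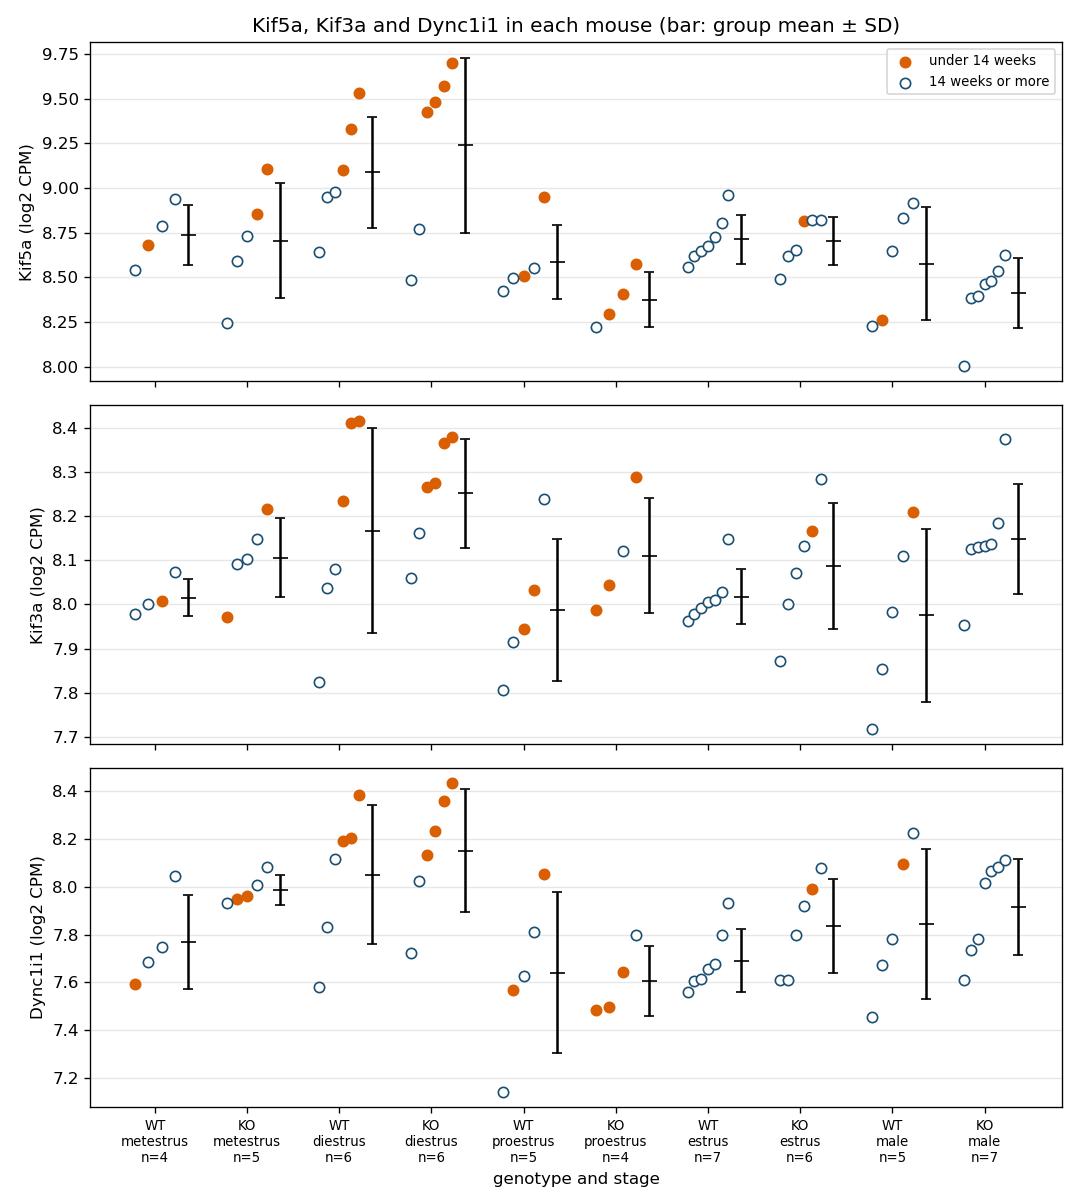
Level of Kif5a, Kif3a and Dync1i1 in log2 CPM (vertical axes) in each of the 55 mice, by genotype and stage (horizontal axis). Filled points are mice under 14 weeks and open points older mice, and bars show group mean ± SD. The 7 filled diestrus points of Kif5a lie between 9.10 and 9.70, while the filled points of the other stages reach at most 9.11.

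Of the 7 diestrus mice under 14 weeks, 6 had more Kif5a than every one of the other 48 mice, the highest of which was a KO metestrus mouse of 13.57 weeks at 9.11 log2 CPM. Outside diestrus, the 10 mice under 14 weeks ranged from 8.26 to 9.11 with a median of 8.63, and the 33 older ones from 8.00 to 8.96 with a median of 8.62. In linear units the younger diestrus mice averaged 704 ± 90.2 CPM (SD, n = 7), against 439 ± 61.8 CPM in the older ones (n = 5) and 408 ± 81.2 CPM in young mice of the other groups (n = 10).

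As a description, the fitted Kif5a level of KO diestrus exceeded that of KO males by 0.96 ± 0.11 on the log2 scale (SE), of KO proestrus by 1.01 ± 0.13, of KO metestrus by 0.75 ± 0.12, of KO estrus by 0.71 ± 0.12 and of WT diestrus by 0.32 ± 0.13. These values chose the set. The 2 older KO diestrus mice, at 8.49 and 8.77 log2 CPM, lay near the range of KO estrus mice (8.49 to 8.82). Among all genes, 28.7% passed a false discovery rate (FDR) of 0.05 between KO diestrus and KO males, 34.3% against KO proestrus, 10.4% against KO metestrus, 30.7% against KO estrus and 0% against WT diestrus. The members past it numbered 6, 3, 1, 3 and 0 in the same order, from which nothing is read. Dync1i1 differed by 0.64 ± 0.11 from KO proestrus and Klc1 by -0.48 ± 0.13 from KO males.

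The younger and older WT diestrus mice were compared next, at an age limit chosen with earlier results of these data known. The FDR values between ages, here and in KO, do not allow for that choice. Kif5a was higher in the younger mice by 0.47 ± 0.14 on the log2 scale (1.38-fold, FDR 0.0069 by limma, 3 of 3 mice above all 3 older ones). Kif3a, the motor subunit of kinesin-2, which also serves cilia, rose by 0.35 ± 0.08 (1.28-fold, FDR 0.00097), from 7.82, 8.04 and 8.08 log2 CPM in the older mice to 8.23, 8.42 and 8.41. Dync1i1, the intermediate chain of neuronal dynein that binds dynactin, rose by 0.37 ± 0.13 (FDR 0.024), from 7.58, 8.12 and 7.83 to 8.20, 8.38 and 8.19. Klc1, a cargo-binding light chain of kinesin-1, went the other way, from 8.70, 8.44 and 8.19 log2 CPM in the older mice to 7.97, 7.85 and 7.90 in the younger, a fall of 0.48 on the log2 scale (FDR 0.045). For each of these 4 genes the 3 younger mice did not overlap the 3 older ones. The other 6 members had differences from -0.27 in Dync1h1 to 0.13 in Kif1a and did not pass. Of these, Dync1h1 did not overlap between ages either, at 6.49 to 6.95 log2 CPM in the younger and 6.97 to 7.40 in the older mice. Among all genes 30.9% passed, beside 4 of 10 members, which is near the background.

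Parents moved with age here: all 3 younger WT diestrus mice and 1 of the 3 older ones (mouse 8_1) had Cnih3 parents, so age and parents cannot be told apart. The 7 younger diestrus mice of both genotypes also had plain 3-digit mouse numbers, which no other mouse had. In neither genotype can age be told apart from membership of that numbered set. Kif5a and Kif3a also passed by edgeR (FDR 0.034 and 0.011) and DESeq2 (0.017 and 0.0047). Dync1i1 passed by DESeq2 (0.049) but not by edgeR (0.067), and Klc1 by neither (0.066 by edgeR, 0.062 by DESeq2). With age in weeks in the model as well, Kif5a differed by 0.34 (FDR 0.0515). Leaving out the older mouse 8_1 raised the FDR of Kif5a to 0.115 with a difference of 0.33, and Dync1i1 passed in 4 and Klc1 in 1 of the 6 fits that left out a mouse.

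In KO diestrus, which has 4 younger and 2 older mice, the difference for Kif5a was 0.91 ± 0.16 on the log2 scale (1.88-fold), given without a test. Kif5b, the kinesin-1 heavy chain made in most cell types, rose by 0.39 ± 0.12 (FDR 0.032), with 8.18, 8.24, 8.23 and 8.27 log2 CPM in the younger mice against 7.67 and 8.02. Kif3a (0.22 ± 0.10, FDR 0.14) and Dync1i1 (0.44 ± 0.15, FDR 0.059) were above the older mice in 4 of 4 younger ones but did not pass, and Klc1 differed by 0.12 ± 0.22. The share of all genes that passed was 8.67%, in both directions, beside 1 of the 9 members tested. Kif5b did not pass by edgeR (0.10) or DESeq2 (0.053), and it passed in 3 of 6 fits that left out a mouse, with a difference of 0.21 (FDR 0.373) without the older mouse 2592, 0.37 (FDR 0.0683) without 532 and 0.38 (FDR 0.0526) without 645. For none of these 9 did the age difference itself differ between genotypes by limma, beside 0 of all 16168 genes. Klc1 and Kif5b had the smallest unadjusted p for it, with KO minus WT of 0.61 ± 0.29 (FDR 0.559) and 0.37 ± 0.16 (FDR 0.533).

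**Figure D2:**
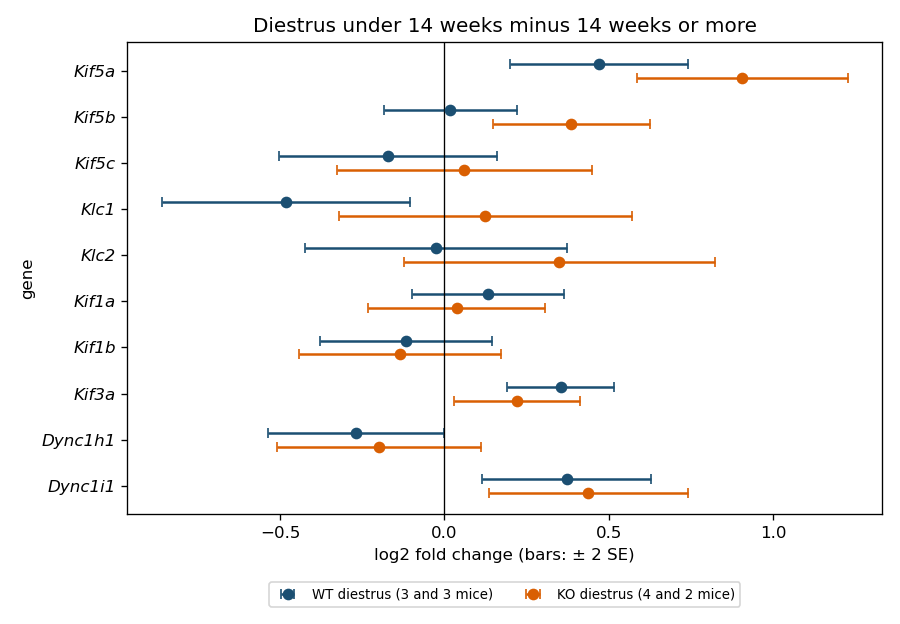
Log2 fold change of each motor gene (horizontal axis) between diestrus mice under 14 weeks and those of 14 weeks or more, in WT (3 and 3 mice) and KO (4 and 2 mice), with bars of ± 2 SE. Kif5a, Kif3a and Dync1i1 lie right of 0 in both genotypes, and Klc1 lies at -0.48 in WT and 0.12 in KO.

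Stages were compared next within WT females, without regard to age. WT diestrus exceeded WT estrus in Kif5a by 0.39 ± 0.13 (FDR 0.0255), in Kif3a by 0.22 ± 0.07 (FDR 0.020) and in Dync1i1 by 0.43 ± 0.11 (FDR 0.0040), or 1.31-, 1.16- and 1.35-fold. The 7 WT estrus mice had 8.56 to 8.96 log2 CPM of Kif5a (median 8.67), 7.96 to 8.15 of Kif3a (median 8.01) and 7.56 to 7.93 of Dync1i1 (median 7.66). The 3 younger WT diestrus mice were above all of these in each gene, and the 3 older ones overlapped them. Kif1b and Dync1h1 were lower by 0.24 ± 0.10 and 0.23 ± 0.10 and did not pass (FDR 0.069 and 0.10). In this comparison 22.1% of all genes passed, beside 3 of 10 members.

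WT diestrus also exceeded WT proestrus in the same 3 genes, by 0.53 ± 0.14 in Kif5a (FDR 0.017), 0.32 ± 0.08 in Kif3a (FDR 0.0085) and 0.39 ± 0.12 in Dync1i1 (FDR 0.029), where 9.66% of all genes passed. Both comparisons share the diestrus mice. Against WT metestrus, with 7.24% of genes past the threshold, and WT males, with 0.068%, no member passed by limma. At an unadjusted p of 0.05, 3 members did in each, and edgeR and DESeq2 called 0 of the 10 there. Kif5a was 0.34 ± 0.14 above metestrus (FDR 0.12) and 0.54 ± 0.16 above males (FDR 0.10).

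These calls rest on the younger mice and on the sample weights of the fit. Without WT diestrus mouse 548, 549 or 569, which are the 3 younger ones, 0 members passed against WT estrus or WT proestrus, and the Kif5a difference from estrus was 0.12, 0.15 and 0.15. Without WT proestrus mouse 4_1 no member passed between WT diestrus and proestrus either, with Kif5a at 0.50 (FDR 0.064). With only the older WT diestrus mice the Kif5a difference from estrus was 0.11, and that of Kif3a was -0.01. With only the younger ones 5 members passed in each comparison by limma. With all WT diestrus mice, edgeR and DESeq2 called 0 of the 10 in both comparisons, and neither was run on the younger mice alone.

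**Figure D3:**
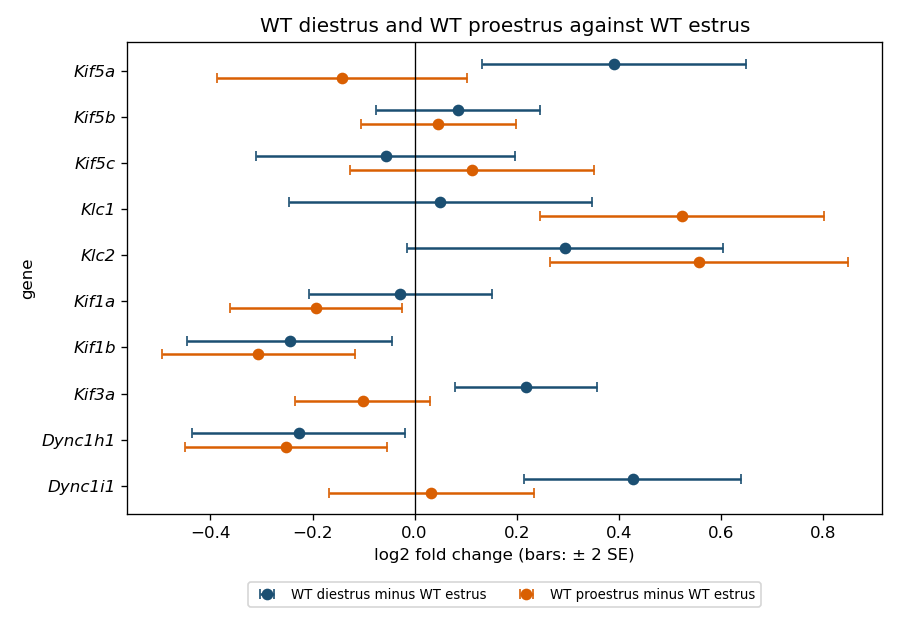
Log2 fold change of each motor gene (horizontal axis) in WT diestrus and in WT proestrus, each against WT estrus, with bars of ± 2 SE. Kif5a, Kif3a and Dync1i1 stand at 0.39, 0.22 and 0.43 in diestrus, while the light chains Klc1 and Klc2 stand at 0.52 and 0.56 in proestrus.

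The light chains gave the other difference between stages. WT proestrus mice had 8.43, 8.67, 8.72, 8.23 and 8.37 log2 CPM of Klc1 and 7.13, 7.03, 6.85, 5.89 and 6.90 of Klc2, while WT estrus mice had 7.66 to 8.48 (median 8.05) and 6.02 to 6.62 (median 6.33). The groups overlapped in both genes, and mouse 8_2 had the lowest Klc2 of both groups. Klc1 was higher in proestrus by 0.52 ± 0.14 (1.44-fold, FDR 0.016) and Klc2 by 0.56 ± 0.15 (1.47-fold, FDR 0.014). Kif1b, a kinesin-3 that carries mitochondria and synaptic vesicle precursors, was lower by 0.31 on the log2 scale (SE 0.09, FDR 0.039). Of all genes 6.82% passed in this comparison. Klc2 passed without any 1 of the 12 mice, Klc1 without any but WT proestrus mouse 4_1 (FDR 0.090) and Kif1b in 6 of 12, but edgeR and DESeq2 called none of the 3.

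Markers of other cells moved with these groups. Of 8 choroid plexus genes 7 were higher in WT proestrus than in WT estrus, with summed levels of 47.7 to 1419 CPM against 20.1 to 116 CPM. With their level in the model the differences of Klc1 and Klc2 were larger than without it (0.68 and 0.66, FDR 0.0036 and 0.0081), and Kif1b no longer passed (-0.29, FDR 0.087), while with the oligodendrocyte level Klc1 was at 0.48 (FDR 0.0502). Younger diestrus mice also had more choroid plexus signal, with summed levels of 210 to 1143 CPM against 45.6 to 174 CPM in older WT mice, and 133 to 671 against 27.5 to 53.0 CPM in KO, although none of the 8 genes passed in either genotype. With that level in the model Kif5a in WT differed by 0.48 between ages (FDR 0.0067) and Klc1 no longer passed (-0.43, FDR 0.0686).

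Of 10 oligodendrocyte genes 8 were lower in WT diestrus than in WT proestrus and 5 lower than in WT estrus, and 5 were lower in younger than in older WT diestrus mice and 4 in KO. Their summed level was 3332 to 3756 CPM in younger and 4681 to 5778 CPM in older WT diestrus mice, 3224 to 4135 and 3527 to 5133 in KO diestrus, and 4060 to 5782 in WT estrus. Over 55 mice Kif5a had a Pearson r of -0.617 with the oligodendrocyte level and 0.0385 with that of 9 pan-neuronal genes, as a description of libraries that share groups and ages. With group means removed the first was -0.265. With the oligodendrocyte level in the model no member passed between WT diestrus and estrus or proestrus. The differences from estrus were then 0.23 in Kif5a, 0.10 in Kif3a and 0.30 in Dync1i1, and those from proestrus 0.24, 0.10 and 0.15, all smaller than without it. Kif5a still differed between younger and older WT diestrus mice by 0.52 (FDR 0.0241), whereas Kif3a (0.26, FDR 0.0515), Dync1i1 (0.37, FDR 0.0815) and Klc1 (-0.52, FDR 0.0994) did not pass. In whole tissue, fewer cells of a type and less RNA per cell cannot be told apart.

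Other cell types moved with the same groups. Of 7 dentate granule cell genes 4 were lower in WT diestrus than in WT estrus (median -0.44) and 4 in younger than in older WT diestrus mice, with summed levels of 181 to 216 CPM in the younger, 234 to 316 CPM in the older and 253 to 314 CPM in WT estrus mice. Of 5 oligodendrocyte precursor genes 4 were lower in WT diestrus than in WT estrus and 3 in the younger WT diestrus mice, at 25.1 to 34.0 CPM against 39.5 to 48.2 CPM in the older. The summed level of the pan-neuronal genes was 10830 to 11680 CPM in younger and 8726 to 10670 CPM in older WT diestrus mice, where 2 of 9 were higher and 1 lower. Over 55 mice Kif3a had an r of -0.699 with the dentate granule cell level, -0.639 with that of oligodendrocyte precursors and 0.479 with the pan-neuronal level, and Dync1i1 had -0.601, -0.547 and 0.249. Kif5a had an r of -0.455 with the dentate granule cell level, -0.478 with that of microglia and 0.48 with that of astrocytes. With group means removed these 3 values were -0.322, -0.11 and 0.411. Kif3a had an r of -0.59 with the CA1 pyramidal cell level. Summed CA1 pyramidal cell genes were at 252 to 308 CPM in younger and 327 to 386 CPM in older WT diestrus mice. In KO they were at 288 to 339 and 341 to 345 CPM. Pan-neuronal genes in KO were at 10450 to 11820 CPM in younger and 9897 to 10160 CPM in older diestrus mice. Oligodendrocyte precursor genes there were at 33.43 to 43.05 against 44.47 to 48.55 CPM. Dentate granule cell genes overlapped between ages in KO, at 210.6 to 243.4 against 234.1 to 280.3 CPM. In WT alone, the ages also did not overlap for interneuron (970 to 1225 against 805 to 967 CPM) and astrocyte genes (1482 to 1682 against 1350 to 1400 CPM). The CA3, microglia, thalamus, endothelium and red blood cell levels overlapped between ages in both genotypes. The part of these lists in the differences of the motors was not tested.

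Among KO groups outside diestrus, Klc2 was lower in estrus than in males by 0.46 on the log2 scale (SE 0.14, FDR 0.036), where 7.66% of all genes passed. KO estrus mice had 6.01 to 6.93 log2 CPM (median 6.34) and KO males 6.28 to 7.17 (median 6.85), and the call was kept in 6 of 13 fits without 1 mouse and by neither edgeR nor DESeq2. No member passed between KO proestrus and KO males (0.315% of all genes) or KO estrus (0.507%), where 2 members each had an unadjusted p under 0.05, and edgeR and DESeq2 also called 0. For no member did limma call the proestrus to estrus difference itself different between genotypes, beside 0 of all 16168 genes. Klc1, with KO minus WT of -0.49 ± 0.21 (FDR 0.261), was the 1 member with an unadjusted p under 0.05.

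Averaged over metestrus, proestrus, estrus and males, Kif1a, the kinesin-3 that carries synaptic vesicle precursors and dense core vesicles, was higher in KO by 0.17 ± 0.05 (1.12-fold, FDR 0.034) and Kif3a by 0.12 ± 0.04 (1.09-fold, FDR 0.048), where 2.23% of all genes passed. The median over the 10 members was 0.07, against -0.002 over all genes tested. All KO mice had Cnih3 parents, while B6 parents were listed for 3 of 4 WT metestrus, 4 of 5 WT proestrus and 6 of 7 WT estrus mice. Of the 5 WT males 1 had B6 parents. Among the females, genotype and parents can hardly be told apart, in this average or within single stages. Neither passed by edgeR or DESeq2, and without 1 mouse at a time Kif1a passed in 34 and Kif3a in 16 of 43 fits. Within single stages no member passed between KO and WT in metestrus (0.0247% of all genes), proestrus (0.315%), estrus (0.179%) or males (0.00619%), and edgeR and DESeq2 called 0 too. The members with an unadjusted p under 0.05 there numbered 1, 3, 0 and 3. Among them were Klc1 (-0.37 ± 0.16, FDR 0.298) and Kif1a (0.28 ± 0.10, FDR 0.192) in proestrus, Kif1a (0.21 ± 0.10, FDR 0.929) in males and Dync1i1 in metestrus, which differed by 0.24 ± 0.11 (FDR 0.521).

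**Figure D4:**
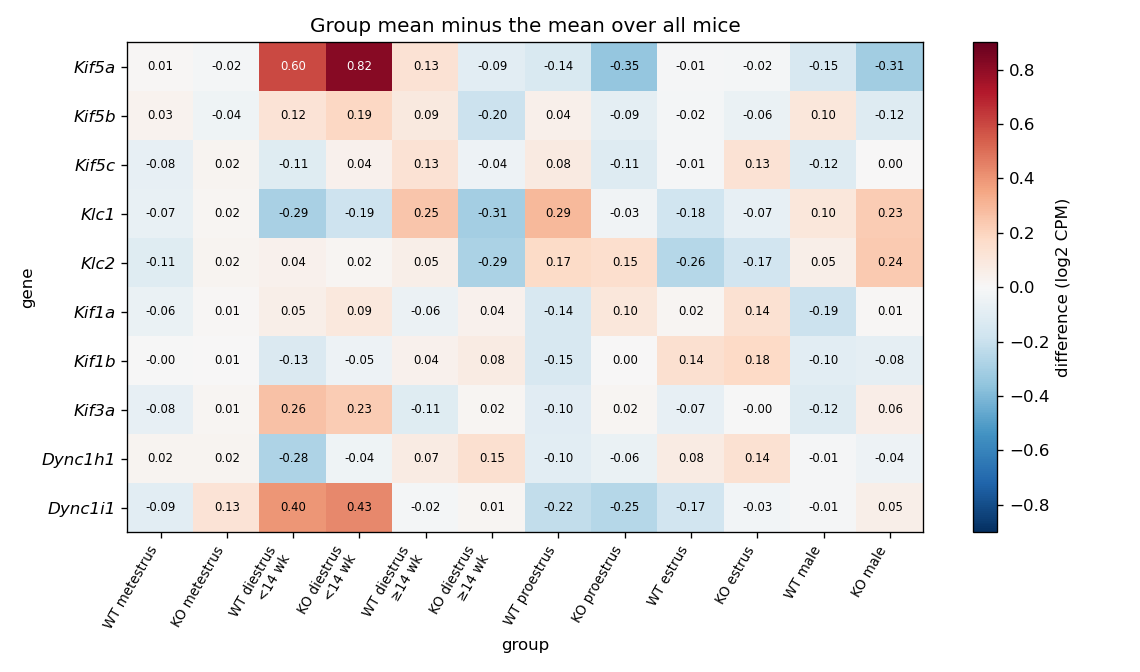
Mean log2 CPM of each motor gene (rows) in 12 groups (columns, diestrus split at 14 weeks of age) minus its mean over all 55 mice. The darkest cells are Kif5a in the younger diestrus mice, with group means of 9.32 in WT and 9.54 in KO against 8.72 over all mice.

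Transcript estimates were used for WT diestrus against WT estrus, with 30 transcripts of the members past the filter on low values. The table at hand holds only part of the transcripts of most members, so shares within a gene are given for Kif5a and Dync1i1 alone. Kif5a-201 made up 99.9% ± 0.06 (SD, n = 6) of the Kif5a estimate in WT diestrus and was 0.40 ± 0.15 higher there than in WT estrus (FDR 0.099). Dync1i1-204, with 54.5% ± 3.6 of its gene in WT diestrus and 50.1% ± 4.0 in WT estrus, rose by 0.56 ± 0.16 (FDR 0.033) and was the only member transcript called, where 4.48% of all transcripts were. It ranged from 6.92 to 7.93 log2 CPM over 6 WT diestrus mice and from 6.82 to 7.33 over 7 WT estrus mice. Dync1i1-203 was 0.38 ± 0.14 higher (FDR 0.097) and Dync1i1-201 0.28 ± 0.18 (FDR 0.40). The FDR of Dync1i1-204 was 0.160 without sample weights and 0.0629 with a lower limit on low values. With that lower limit Klc1-208 was called instead (-3.55, FDR 0.0432). This Klc1 transcript lay near the floor, with medians in the main fit of -4.97 log2 CPM in WT diestrus and 0.14 in WT estrus.

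Other parts of the transport machinery were counted in lists, with calls from the main limma fit alone. These calls were not followed through the alternative fits, in which edgeR and DESeq2 called no member between WT diestrus and WT estrus. Between WT diestrus and WT estrus, 6 of 12 dynactin subunits rose and none fell (list median 0.23), among them Dctn2 (0.31, FDR 0.0023), Actr1b (0.31, FDR 0.011) and Dctn3 (0.33, FDR 0.019). Of 17 microtubule proteins of neurons 7 rose and none fell (median 0.14), including the tubulins Tubb3 (0.47, FDR 0.0020), Tuba1a (0.41, FDR 0.0038) and Tuba4a (0.38, FDR 0.0042). Other dynein subunits gave 3 of 11 higher and none lower (median 0.12), with Dynlt1b at 0.83 (FDR 0.011), Dynlt3 at 0.33 (FDR 0.0051) and Dync2li1 at 0.26 (FDR 0.038). Over all genes the median was -0.01, with 1463 higher and 2113 lower.

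The kinesins and adaptors were more mixed. The list of 15 other kinesin genes tested also held light chains, which are not motors themselves. Of these 15 genes 1 rose, the light chain Klc4 (0.41, FDR 0.0090), and 2 fell, Kif13b (-0.60, FDR 0.014) and Kif13a (-0.45, FDR 0.017). Among 18 adaptors and regulators 2 rose and 2 fell, with Mapk8ip2, a scaffold that binds kinesin light chains, at 0.41 (FDR 0.0069), and Clstn1, a membrane cargo adaptor of kinesin-1, at -0.75 (FDR 0.00086), and Hook1, a dynein adaptor, at -0.60 (FDR 0.0028). Only 6 of 13 mitotic kinesins reached the filter, and 1 fell (Kif15, -1.42, FDR 0.0045).

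Younger against older WT diestrus mice gave 5 of 12 dynactin subunits higher and 1 lower, and 7 of 17 microtubule proteins higher and none lower, with Tubb3 at 0.61 (FDR 0.00013). Of the adaptors none rose and 5 of 18 fell. Among all 16168 genes 30.9% passed there in both directions together, 2198 higher and 2790 lower. Whether the counts in these lists differ from those over all genes was not tested. In KO diestrus none of the dynactin subunits or microtubule proteins passed, at medians of 0.23 and 0.20, while 2 of 18 adaptors rose and 2 fell, beside 8.67% of all genes. Clstn1 fell in the younger mice of both genotypes, by 0.90 in WT (FDR 1.5e-05) and by 0.98 in KO (FDR 0.00013). Kif13b fell by 0.98 in WT (FDR 0.00039) and by 0.75 in KO (FDR 0.028). KO against WT outside diestrus gave 1 of 15 other kinesins higher and no call in the lists of dynein, dynactin, adaptors or microtubule proteins, beside 2.23% of all genes.

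Across the 55 mice the members did not rise and fall as one. The median Pearson r of the 45 pairs was 0.10, 27 were positive, 8 were over 0.5 and none was under -0.5. Kif1b and Dync1h1 had an r of 0.81, Klc1 and Klc2 of 0.73, Kif1a and Kif1b of 0.72 and Kif5b and Kif5a of 0.56, while Dync1i1 went with Kif3a (0.58) and Kif5a (0.47) and had the lowest r with Kif1b (-0.48). These mice share groups and ages, so the values are a description. Rapgef4, a cAMP-responsive exchange factor for Rap, was most like Kif5a in level over the mice (r 0.93), followed by Zfp365 (0.89), Dio2 (0.86), Wdr13 (0.845) and Cdk14 (0.83). The genes most like the mean of the 10 members were Arhgef17, Zc3h7b, Nacc2, Snph and Mturn, at 0.77 to 0.78.

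**Figure D5:**
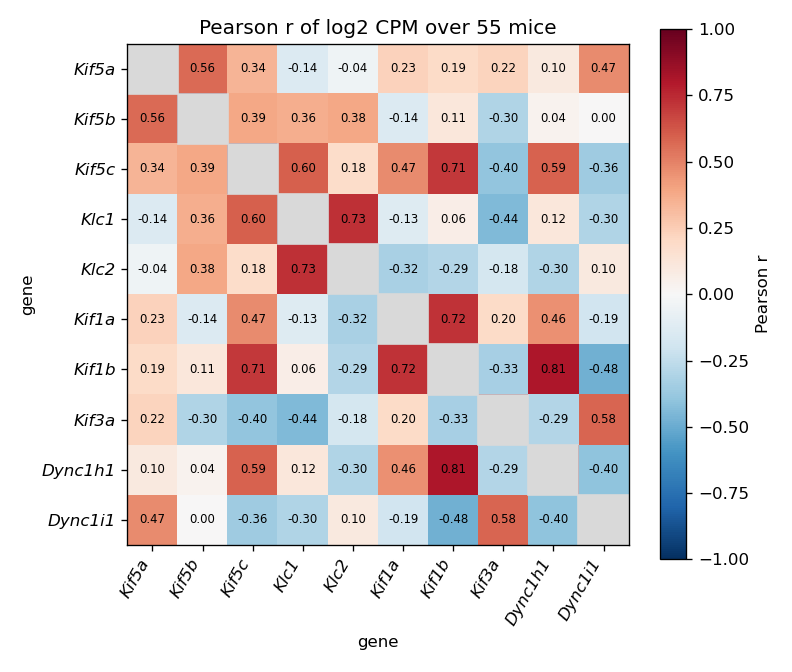
Pearson r of log2 CPM between each pair of motor genes (both axes) over 55 mice. The highest value is 0.81, between Kif1b and Dync1h1, and the lowest -0.48, between Kif1b and Dync1i1.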

How the data were processed

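Dorsal hippocampal RNA of 55 mice was sequenced as polyadenylated RNA from 1 library per mouse. Per the study and the labels, reads were aligned to GRCm38 with STAR 2.7.9a, counted per Ensembl gene with featureCounts 2.0.3, and estimated per transcript with Salmon 1.5.2. The authors deposited raw gene counts, which were used as they are, estimated counts per transcript, which were rounded, and a table of log2 CPM, which was used only as a check and matched within 5e-14 over 16164 genes. The 2 deposited CPM tables were not used. In the gene counts 1 column matched none of the samples and was not used, and 287 of 55774 lines repeat a gene.

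In R 4.3.3, genes with more than 1 CPM in at least 10 libraries were kept, without 5 ribosomal RNA genes, which gave 16168. Counts were scaled by TMM (edgeR 4.0.16) and moderated tests came from limma 3.58.1 after voomWithQualityWeights, with 1 mean per genotype and stage group and each comparison as a contrast, or with diestrus divided at 14 weeks. FDR followed Benjamini and Hochberg over all genes tested. Fold changes are log2 with SE and group values are mean ± SD. Levels are log2 CPM after TMM. Alternatives were DESeq2 1.42.0, the quasi-likelihood test of edgeR, no filter, voom without weights, upper-quartile scaling, age as a covariate, subsets by age and parents (parents from the study's sample list), and each mouse left out. Models with the choroid plexus or oligodendrocyte level were added after seeing the data. The fit was tested on simulated data.

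The 10 genes, the lists, the age limit and the tests were chosen with earlier results of these data known. Named genes are the members, up to 3 genes per transport list with the smallest p between WT diestrus and WT estrus, and the 5 genes most like Kif5a and most like the member mean. Mice are separate animals, so p-values measure the spread between mice.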

Additional observations from a re-analysis of the deposited data

Results flagged for a closer look

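A mouse stood apart from the rest of its group by Dixon's limit in 8 of the 100 sets of values scanned (10 genes in 10 groups), and chance flags about 1 in 20. Kif5a was low in KO male mouse 2590, at 8.0046 log2 CPM, and high in WT proestrus mouse 20_2, at 8.9505. Kif5b was low in the same KO male 2590, at 7.4764, and in KO estrus mouse 2593, at 7.6291. Klc2 was low in KO metestrus mouse 11_1, at 5.8191, and in WT proestrus mouse 8_2, at 5.8873. Kif1a was high in WT estrus mouse 2_1, at 8.8367, and Kif3a in WT estrus mouse 3_1, at 8.1487.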

How the results depend on the processing

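The 17 called differences of the 10 genes (Kif5a in KO age left out) were refitted 387 times and lost their call in 168, in 83 of 237 refits that left out a mouse and in 85 of 150 others. Differences that were not called gained a call in 71. Signs changed in 239 of 3230 refits of all differences, all but 1 of them in differences that were not called as reported, and the exception was Kif3a between WT diestrus and estrus with only the older WT diestrus mice, at -0.0085 (FDR 0.99). The cause was not tested.

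The count of members called between WT diestrus and WT estrus (3) was 0 by edgeR, DESeq2 or voom without weights, 0 with the oligodendrocyte level or only older diestrus mice, 1 with age in the model and 5 with only younger diestrus mice. For WT proestrus in place of estrus (3) it was 0 by edgeR, DESeq2, voom without weights, without a filter, with the oligodendrocyte level or with older mice only, and 5 with younger mice only. Against metestrus (0) it was 1 with upper-quartile scaling and 3 with younger mice, and against males (0) 3 with younger mice and 4 with only Cnih3 parents. Between WT proestrus and estrus (3), and between KO and WT outside diestrus (2), it was 0 by edgeR, DESeq2, voom without weights and without a filter, and for the second 1 with age, upper-quartile scaling or the choroid plexus level. KO estrus against males (1) gave 0 under these 4, with age or Cnih3 parents, and 2 with the oligodendrocyte level. KO proestrus against estrus (0) gave 1 with age. For younger against older WT diestrus (4) it was 2 by edgeR, voom without weights or no filter and 1 with the oligodendrocyte level, and in KO (1, Kif5a left out) 0 by edgeR, DESeq2, voom without weights or age and 2 with the choroid plexus level or Cnih3 parents. Transcripts called (1) fell to 0 without weights.

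With each mouse left out, counts ranged from 0 to 5 for WT diestrus against estrus, 0 to 4 against proestrus, 0 to 3 against metestrus and 0 to 3 against males, 2 to 4 for WT proestrus against estrus, 0 to 2 for KO estrus against males, 0 to 1 for KO proestrus against males, 0 to 1 for KO against WT proestrus, 0 to 2 for KO against WT outside diestrus, 2 to 3 for WT age and 0 to 2 for KO age, and stayed 0 in the other 4. Where a group was left with 1 mouse, that mouse was assumed to vary like the other groups. The subset with Cnih3 parents could not be run where a group kept under 2 such mice.

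No paired analysis was possible because the labels give no replicate numbers, and numbers in accession order pair no mice.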
